A study of Mus musculus with 12 samples.

Results

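The enzymes of serine synthesis and one-carbon metabolism were examined in inguinal white adipose tissue (iWAT), the subcutaneous fat pad of the mouse in which beige adipocytes form in the cold. The 10 enzymes were picked by gene symbol from a table of 23420 genes, and all 10 were among the 15306 genes that passed the filter on low counts. They comprised the serine synthesis enzymes Phgdh, Psat1 and Psph, the serine hydroxymethyltransferases Shmt1 and Shmt2, the folate enzymes Mthfd1, Mthfd1l, Mthfd2 and Aldh1l2, and the methionine adenosyltransferase Mat2a. Upon cold exposure, Psat1, Psph, Mat2a and the cytosolic enzymes Shmt1 and Mthfd1 rose in WT mice. The small rise of Mthfd1 was the least stable of these and held under 7 of 22 alternative settings. Phgdh and the mitochondrial enzymes Shmt2, Mthfd1l, Mthfd2 and Aldh1l2 did not pass the test in either direction.

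Serine is made from the glycolytic intermediate 3-phosphoglycerate in consecutive steps of oxidation, transamination and dephosphorylation, which PHGDH, PSAT1 and PSPH catalyse. Serine hydroxymethyltransferases then move a carbon unit from serine to tetrahydrofolate and leave glycine, SHMT1 in the cytosol and SHMT2 in mitochondria. The carbon units are carried on folate through parallel enzymes of both compartments and are used for nucleotides, for NADPH and, through methionine, for S-adenosylmethionine, the methyl donor that MAT2A makes.

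RNA-seq had been performed on iWAT of 12 male C57BL/6 mice aged 10 weeks, which formed 4 groups of 3. Mice labelled WT carried loxP-flanked HIF2a alleles without Cre, and mice labelled HIF2α AKO carried the same alleles with Adipoq-Cre, which is active in adipocytes and leaves the other cells of the depot their HIF2a alleles. Mice of both genotypes were housed for 1 week at 30 °C, the thermoneutral condition (TN), or for 3 days at 4 to 6 °C, the cold condition. The floxed alleles were shared by all groups, and Cre and the deletion always came together. Between 22368316 and 35204631 reads were counted on genes per mouse, and values are given as read counts scaled to library size (CPM) after scaling by the trimmed mean of M-values (TMM). The sources used here do not say how tissue was taken from each animal, so p-values measure the spread between these samples.

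Labels were checked first. Ucp1, the uncoupling protein of thermogenic adipocytes, lay between 0.204 and 0.648 CPM in TN WT mice and between 2171 and 3506 CPM in cold WT mice. Epas1, which encodes HIF2α, did not mark the labelled genotypes. It was at 627 ± 101 CPM in cold WT and 826 ± 139 CPM in cold HIF2α AKO mice, and at 360 ± 76.8 CPM in TN WT and 348 ± 53.8 CPM in TN HIF2α AKO mice, where the values overlapped (SD, n = 3 each). In cold, all HIF2α AKO mice (743.2 to 985.7 CPM) were narrowly above all WT mice (562.0 to 742.8 CPM). Groups in cold did not overlap, in either direction, for 7.53% of all genes. The log2 fold change of 0.40 did not pass the test (adjusted p = 0.9999 by edgeR), so that the counts showed neither a loss nor a called rise. The paper reports lower Hif2a mRNA in adipose tissue of its knockout mice by RT-qPCR. Epas1 itself rose in cold, by 0.80 in WT (adjusted p = 0.0178 by edgeR) and by 1.25 with the label HIF2α AKO on the log2 scale (adjusted p = 0.00176 by edgeR). Its counts cover the whole gene, so that a floxed exon could not be examined alone, and genotypes are given as labelled throughout. Summed skeletal muscle markers reached 1711 CPM in cold HIF2α AKO mouse 1 and 1964 CPM in TN HIF2α AKO mouse 2 but lay between 15.4 and 115 CPM in the other 10 mice. Summed epithelial markers reached 281 CPM in TN WT mouse 3 and lay between 3.73 and 12.0 CPM in the others. Calls of the enzymes in cold against TN are given with and without these 3 libraries. Pathway lists, similar patterns and cell markers are given with them only.

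Levels of the enzymes were compared per kilobase of exon. In TN WT mice, Phgdh was highest with 50.4 CPM per kb on average, followed by Mat2a with 45.4 and Shmt2 with 20.4. Psat1 followed with 16.3 CPM per kb and Mthfd1 with 12.0, whereas Aldh1l2, the mitochondrial formyltetrahydrofolate dehydrogenase, was lowest with 0.405. Between them lay Mthfd2 at 7.48, Mthfd1l at 4.99, Psph at 3.86 and Shmt1 at 3.14 CPM per kb. In this order, the ranges over mice overlapped between the neighbours Phgdh and Mat2a, Shmt2 and Psat1, Psat1 and Mthfd1, Mthfd1l and Psph, and Psph and Shmt1, and did not overlap between the other neighbours. Thus the cytosolic Shmt1 stood far below its mitochondrial paralogue Shmt2 at TN. In cold WT mice, Psat1 averaged 27.3 CPM per kb and lay above Shmt2, which averaged 18.4, without overlap.

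Because the study deleted a hypoxia-inducible factor, and because ATF4 is a known activator of serine synthesis genes, the promoters of the enzymes were searched for the binding letters of both factors. RefSeq promoter windows of 300 bases around the transcription start (GRCm38.p6) were at hand for 9 of the 10 enzymes, all except Aldh1l2. The core letters of the hypoxia response element, ACGTG, were found on either strand in 3 of these 9, namely Mthfd1l, Psat1 and Psph, and in 19.6% of all 32851 windows. The C/EBP-ATF response element TGATGNAA was found in 0 of the 9 enzymes and in 3.97% of all windows. The matches are shown on the strand of the gene, with the core letters, or CACGT where they lie on the other strand, in capitals and the first base of the match counted from the RefSeq start.
Mthfd1l, chr10:3972825-3972845, plus strand, base -246: ctccCACGTaataaacacttc
Mthfd1l, chr10:3973024-3973052, plus strand, base -39: aaccaaaagcttCACGTccgctggccccc
Psat1, chr19:15924602-15924630, minus strand, base 5: cggtcggggcggCACGTttccttccgggg
Psph, chr5:129787390-129787418, minus strand, base -153: aggccgagaacaACGTGctctctgcgggg
By the GENCODE M21 coordinates used here for exons, the matches of Psat1 and Psph lie inside the gene. These genes span chr19:15904678-15947337 and chr5:129765558-129787449 there, so that the RefSeq and GENCODE starts differ. A match describes the letters in the window and does not show that a factor binds there.

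To examine the response of the pathway to cold, cold WT mice were compared with TN WT mice. Of the 10 enzymes, 5 rose, where 15.6% of all tested genes rose, and 0 fell, where 5.68% of all genes fell (quasi-likelihood test of edgeR, with p-values adjusted after Benjamini and Hochberg over 15306 genes). The same 5 enzymes were higher in every cold WT mouse than in every TN WT mouse, a pattern found in 22.7% of all genes. The median log2 fold change was 0.17 over the 10 enzymes and -0.03 over all genes. In RNA of whole tissue, fewer cells of a type and less RNA per cell cannot be told apart. Scaling by library size alone moved the median of all genes by -0.30 on the log2 scale and turned the split of calls from 2389 higher and 870 lower to 1429 higher and 4459 lower.

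**Figure D1:**
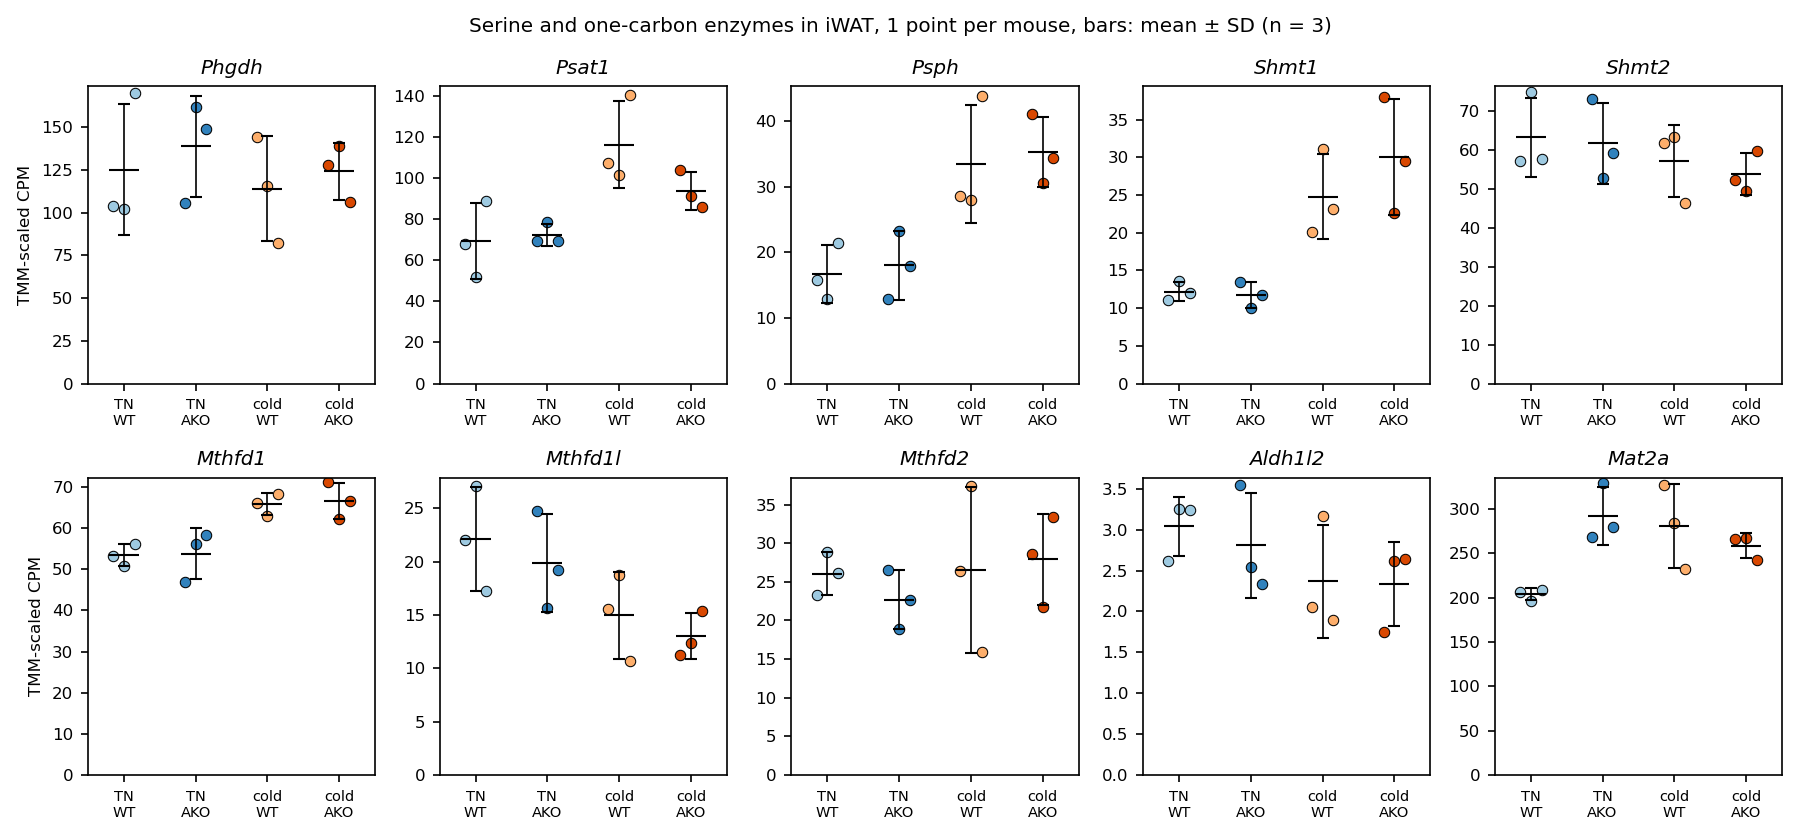
TMM-scaled CPM of the 10 enzymes in iWAT, with 1 point per mouse, horizontal lines for the group mean and bars for the SD (n = 3). Shmt1 lay between 20.1 and 31.1 CPM in cold WT mice and between 11.0 and 13.6 CPM in TN WT mice, whereas the points of Shmt2, Mthfd2 and Phgdh overlapped between temperatures in both genotypes.

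In the serine synthesis branch, the later steps rose and the first did not pass the test. Phgdh, the first and committed enzyme, was at 104, 102 and 170 CPM in the TN WT mice and at 144, 115 and 82.5 CPM in the cold WT mice. These values overlapped widely, with a log2 fold change of -0.14 (95% confidence interval -0.69 to 0.42, adjusted p = 0.706 by edgeR). Psat1, the phosphoserine aminotransferase, was at 67.8, 51.9 and 88.5 CPM in TN WT and at 107, 101 and 140 CPM in cold WT mice. All cold values were above the TN values, and Psat1 rose 1.67-fold (log2 fold change 0.74, SE 0.18, adjusted p = 0.0171 by edgeR). Psph, the phosphatase that releases serine, was at 15.8, 12.9 and 21.5 CPM in TN WT and at 28.6, 27.9 and 43.8 CPM in cold WT mice. The groups did not overlap, and Psph rose 2.00-fold (log2 fold change 1.00, SE 0.26, adjusted p = 0.0203 by edgeR). Cold WT mouse 3 had the highest Psat1 and Psph and the lowest Phgdh of its group, and TN WT mouse 2 had the lowest Psat1 and Psph. Without TN WT mouse 1, TN WT mouse 2 or cold WT mouse 3, neither Psat1 nor Psph passed the test, with log2 fold changes from 0.56 to 0.73 for Psat1 and from 0.76 to 0.96 for Psph.

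Psph shares 452 exonic bases with Cct6a on the opposite strand (GRCm38, GENCODE M21; Psph at chr5:129765558-129787449, minus strand). Phgdh (chr3:98313170-98339990) and Psat1 (chr19:15904678-15947337), both on the minus strand, share none with another gene. The strand setting of the counting is not given in the sources used here, so reads of opposite genes over shared bases cannot be told apart.

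Among the cytosolic folate enzymes, Shmt1 changed about as much as Psph. It was at 11.0, 13.6 and 12.0 CPM in TN WT mice and at 20.1, 31.1 and 23.2 CPM in cold WT mice. The groups did not overlap, and Shmt1 rose 2.03-fold (log2 fold change 1.02, SE 0.21, adjusted p = 0.00737 by edgeR). The call held under all 22 alternative settings, with log2 fold changes from 0.73 to 1.15. Mthfd1, the cytosolic enzyme that joins 3 folate activities in a single chain, was at 53.1, 50.8 and 56.2 CPM in TN WT and at 66.2, 63.0 and 68.3 CPM in cold WT mice. The rise was small but larger than the spread between mice, at 1.23-fold (log2 fold change 0.30, SE 0.095, adjusted p = 0.0444 by edgeR). It was the least stable of the 5 calls, since it held under 7 of 22 alternatives, and its log2 fold change was 0.0048 when libraries were scaled by their size alone. Without the 3 libraries with muscle or epithelial transcripts, the log2 fold change of Mthfd1 was 0.34, no smaller than with them, with an adjusted p = 0.0579 by edgeR, and Psat1, Psph and Shmt1 passed the test. Shmt1 (chr11:60788104-60811718, minus strand) shares 184 exonic bases with Smcr8, and Mthfd1 (chr12:76255298-76319803, plus strand) shares 37 with Gm47525.

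In cold WT mice, the 4 mitochondrial enzymes had 0 calls by edgeR, where 15.6% of all genes rose and 5.68% fell. For 4 genes, 0 calls is near these shares. DESeq2 and voom on all samples also gave 0 calls, although Mthfd1l had an unadjusted p under 0.05 by edgeR. Their log2 fold changes lay between -0.56 and 0.03. Shmt2, which makes glycine from serine in mitochondria, was at 57.2, 75.1 and 57.9 CPM in TN WT and at 61.8, 63.4 and 46.5 CPM in cold WT mice. The values overlapped, with a log2 fold change of -0.15 (95% confidence interval -0.50 to 0.21). Mthfd2, the mitochondrial methylenetetrahydrofolate dehydrogenase, was at 23.3, 28.8 and 26.1 CPM in TN WT and ranged from 15.9 in mouse 3 to 37.4 CPM in mouse 2 of the cold WT group. With this spread, the interval of its log2 fold change ran from -0.55 to 0.61. Mthfd1l, which releases formate from mitochondria, was at 22.1, 27.1 and 17.3 CPM in TN WT and at 15.6, 18.8 and 10.7 CPM in cold WT mice. Its level was lower in cold on average but the groups overlapped, with a log2 fold change of -0.56 (SE 0.24, adjusted p = 0.109 by edgeR). Aldh1l2 was counted with only 36 to 103 reads per mouse over all groups, and 14.1% of its exonic bases are shared with D10Wsu102e on the opposite strand. Its log2 fold change was -0.36 (95% confidence interval -0.93 to 0.22).

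Mat2a, the enzyme that makes S-adenosylmethionine in most tissues outside the liver, was at 207, 196 and 209 CPM in TN WT and at 327, 284 and 233 CPM in cold WT mice. All cold mice were above all TN mice, and Mat2a rose 1.38-fold (log2 fold change 0.47, SE 0.13, adjusted p = 0.0285 by edgeR). The call held under 15 of 22 alternatives. Scaling by library size alone lowered the log2 fold change to 0.18, and the call was lost (adjusted p = 0.332 by edgeR). With edgeR on these 6 samples alone it was lost at 0.46 (adjusted p = 0.0849). It was also lost without cold WT mouse 1 or mouse 2, where the log2 fold change was 0.34 and 0.43. The same held without TN WT mouse 1 or mouse 2, where the log2 fold change was 0.48 and 0.42. Without the 3 libraries with muscle or epithelial transcripts, it was 0.48 (adjusted p = 0.0538 by edgeR), no smaller than with them. Mat2a (chr6:72432799-72439558, minus strand) shares 508 exonic bases with Particl on the opposite strand.

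**Figure D2:**
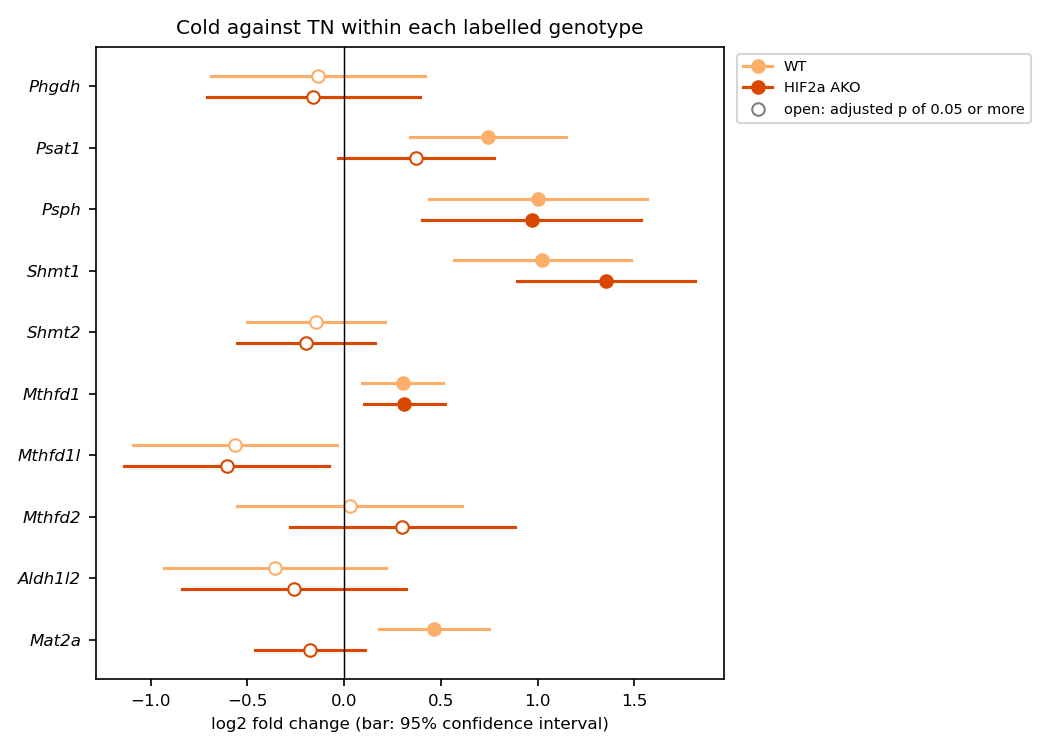
Log2 fold change of cold against TN for each enzyme, in WT and in mice labelled HIF2α AKO, with bars for the 95% confidence interval from edgeR, and filled points where the adjusted p was under 0.05. Shmt1, Psph and Mthfd1 were filled in both genotypes, Psat1 and Mat2a in WT alone, and the points of Shmt2, Mthfd1l, Aldh1l2 and Phgdh lay left of 0 in both.

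To compare paired enzymes independently of the scaling of libraries, ratios of CPM per kb were taken within each mouse. Shmt1 to Shmt2 was 0.145, 0.154 and 0.166 in the TN WT mice and 0.261, 0.393 and 0.40 in the cold WT mice, in rising order. The ratio was 2.23-fold higher in cold, although Shmt2 transcripts stayed more abundant than Shmt1 transcripts in all mice. In mice labelled HIF2α AKO, this ratio lay between 0.147 and 0.159 at TN and between 0.367 and 0.581 in cold, which was 2.86-fold higher. The value of 0.581 was that of cold HIF2α AKO mouse 1, which held skeletal muscle transcripts, and the others were 0.367 and 0.394. Mthfd1 to Mthfd1l ranged from 1.87 to 3.24 in TN WT and from 3.35 to 6.40 in cold WT mice, and from 1.89 to 3.57 and from 4.32 to 6.29 in the labelled HIF2α AKO mice. These ratios were higher in every cold mouse than in every TN mouse of the same genotype. The ratio of Mthfd1 to the other mitochondrial partner, Mthfd2, overlapped between temperatures in both genotypes. It ranged from 1.38 to 1.79 in TN WT and from 1.32 to 3.37 in cold WT mice, and from 1.39 to 2.34 and from 1.57 to 2.25 in the labelled HIF2α AKO mice.

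Within serine synthesis, Psat1 to Phgdh ranged from 0.297 to 0.381 in TN WT and from 0.433 to 0.993 in cold WT mice. Psph to Phgdh ranged from 0.0722 to 0.0874 in TN WT and from 0.114 to 0.305 in cold WT mice. The highest cold values of both were those of mouse 3, which had the lowest Phgdh. Psph to Phgdh was likewise separate, with 0.0690 to 0.0827 at TN and 0.126 to 0.186 in cold in the labelled HIF2α AKO mice, whereas Psat1 to Phgdh overlapped there. With 3 mice against 3, the two-sided exact permutation test cannot give a p below 0.1, and 7 of the 10 comparisons of ratios reached this smallest value (p = 0.1, adjusted p = 0.143 over 10 tests). The exact p was 0.2 for Psat1 to Phgdh in the labelled HIF2α AKO mice, and 0.5 in WT and 1 in the labelled HIF2α AKO mice for Mthfd1 to Mthfd2. These ratios were formed after the changes of the single enzymes were known, and they restate those changes without the scaling of libraries.

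**Figure D3:**
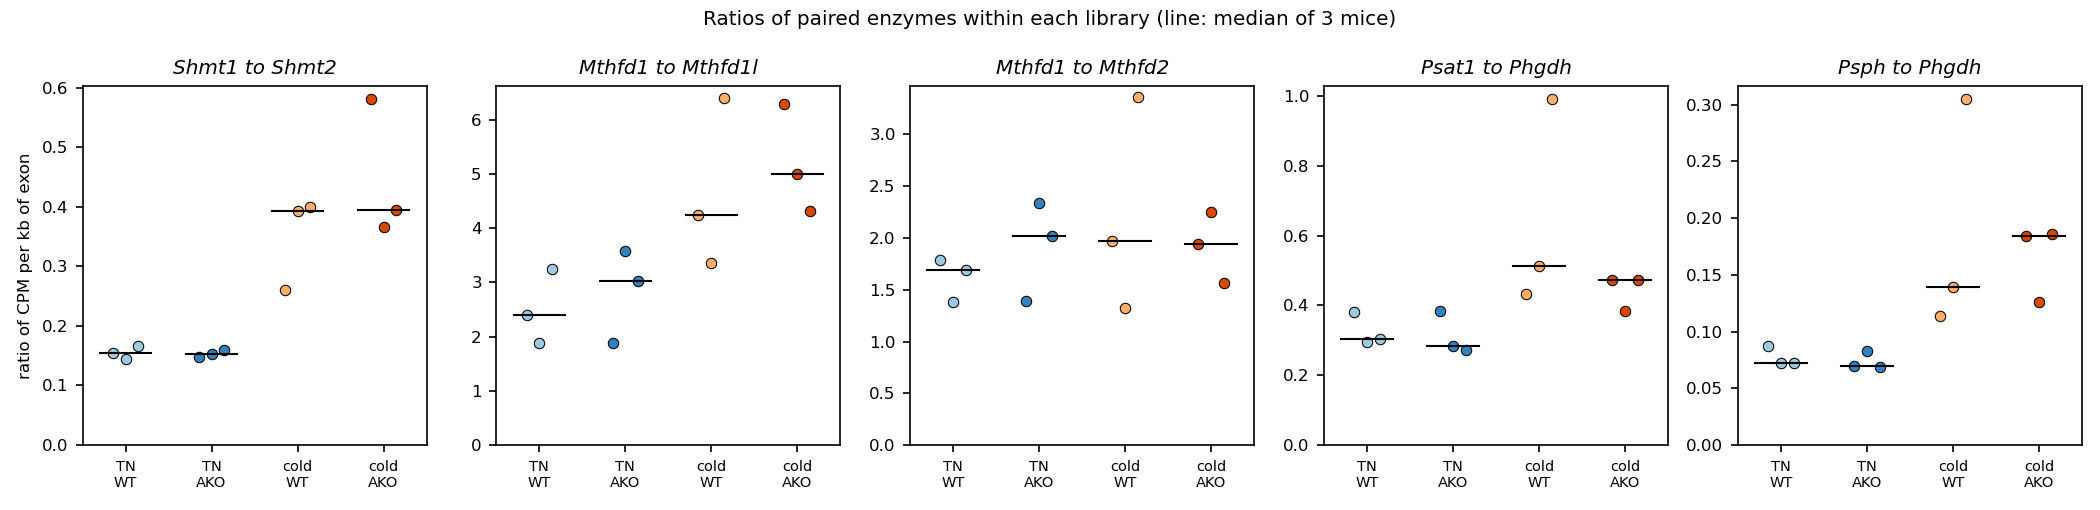
Ratios of CPM per kb of exon between paired enzymes in each mouse, with a line at the median of 3 mice. In cold, Shmt1 to Shmt2 lay between 0.261 and 0.581, above the range of 0.145 to 0.166 at TN, whereas Mthfd1 to Mthfd2 overlapped between temperatures, and Psat1 to Phgdh in cold WT mouse 3 reached 0.993.

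The same comparison was made between the cold and TN mice labelled HIF2α AKO. Of the 10 enzymes, 3 rose, where 15.6% of all genes rose, and 0 fell, where 11.5% of all genes fell, by edgeR. The median log2 fold change was 0.07 over the enzymes and -0.05 over all genes. Here 4 enzymes were higher in all cold mice than in all TN mice, against 24.9% of all genes, and 2 were lower in all cold mice, against 25.6%. Shmt1 was at 13.5, 10.0 and 11.8 CPM at TN and at 38.1, 22.7 and 29.5 CPM in cold. It rose 2.55-fold without overlap (log2 fold change 1.35, SE 0.21, adjusted p = 0.00148 by edgeR), and this call held under all 22 alternatives. Psph was at 12.9, 23.3 and 17.9 CPM at TN and at 41.1, 30.5 and 34.5 CPM in cold. The cold mice were all higher, and Psph rose 1.96-fold (log2 fold change 0.97, SE 0.26, adjusted p = 0.0201 by edgeR). Mthfd1 was at 46.8, 56.2 and 58.3 CPM at TN and at 71.1, 62.3 and 66.5 CPM in cold, and it rose 1.24-fold (log2 fold change 0.31, SE 0.095, adjusted p = 0.0356 by edgeR). Without cold HIF2α AKO mouse 1 or TN HIF2α AKO mouse 1, of these only Shmt1 passed the test, with log2 fold changes of 0.85 and 0.78 for Psph and 0.26 and 0.22 for Mthfd1. Without the 3 libraries with muscle or epithelial transcripts, Psph and Shmt1 passed it. The log2 fold change was then 1.04 for Shmt1, 1.08 for Psph and 0.29 for Mthfd1.

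Psat1 was higher in each cold mouse labelled HIF2α AKO as well, but by less than the test could call. It was at 69.4, 78.5 and 69.1 CPM at TN and at 104, 91.4 and 85.7 CPM in cold (log2 fold change 0.37, SE 0.18, adjusted p = 0.142 by edgeR). Mthfd1l was at 24.7, 15.7 and 19.2 CPM at TN and at 11.3, 12.4 and 15.4 CPM in cold. Its cold values were all lower than its TN values, with a log2 fold change of -0.61 (SE 0.24, adjusted p = 0.0797 by edgeR). Mat2a was at 268, 329 and 279 CPM at TN and at 267, 267 and 242 CPM in cold, which is the opposite direction to WT, with a log2 fold change of -0.18 (SE 0.13, adjusted p = 0.316 by edgeR). Phgdh, Shmt2, Mthfd2 and Aldh1l2 overlapped between the groups, with log2 fold changes between -0.26 and 0.30.

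Mice labelled HIF2α AKO were then compared with WT mice at each temperature, using the same 4 groups, so that these comparisons share samples with those of cold and TN. In cold, 0 of the 10 enzymes passed the test, as did 0.00653% of all genes, and 0 of 10 had an unadjusted p under 0.05 by edgeR, against 2.95% of all genes. DESeq2 and voom on all samples called 0 enzymes as well. The groups overlapped for all 10 enzymes, whereas they did not for 7.53% of all genes. The log2 fold changes lay between -0.31 for Psat1 and 0.28 for Shmt1. For Shmt1 it was 0.07 without cold HIF2α AKO mouse 1, which held skeletal muscle transcripts. It was also 0.07 without the 3 libraries with muscle or epithelial transcripts. Psat1 was at 107, 101 and 140 CPM in cold WT and at 104, 91.4 and 85.7 CPM in cold HIF2α AKO mice, with a 95% confidence interval of the log2 fold change from -0.71 to 0.09 by edgeR. The study's methods set wider limits for DESeq2, an unadjusted p under 0.15 with an absolute log2 fold change above 0.2. With these limits applied to the edgeR values, Psat1 was the 1 enzyme that passed, as lower, as did 4.24% of all genes. For Shmt1 the interval ran from -0.17 to 0.73, for Psph from -0.48 to 0.64 and for Mthfd1 from -0.19 to 0.23. Differences within these intervals were not excluded at this spread.

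**Figure D4:**
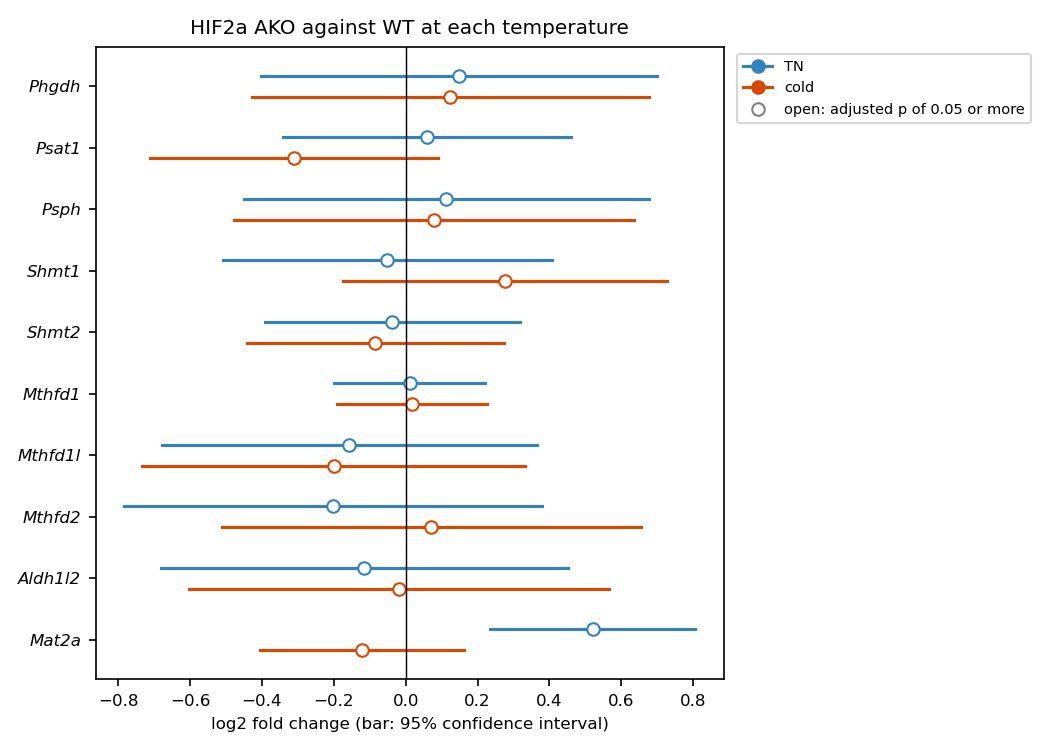
Log2 fold change of mice labelled HIF2α AKO against WT mice for each enzyme, at TN and in cold, with bars for the 95% confidence interval from edgeR, and open points because 0 enzymes had an adjusted p under 0.05. Mat2a at TN, at 0.52 with an interval from 0.23 to 0.81, was the 1 enzyme whose bar did not reach 0.

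At TN, 0 of the 10 enzymes passed the test between the labelled genotypes, as did 0.00653% of all genes, and 1 had an unadjusted p under 0.05 by edgeR, against 2.91% of all genes. This enzyme was Mat2a, at 207, 196 and 209 CPM in TN WT mice and at 268, 329 and 279 CPM in TN HIF2α AKO mice. All 3 labelled HIF2α AKO mice were higher than all WT mice, as for 3.69% of all genes. The log2 fold change was 0.52 (SE 0.13, adjusted p = 0.999 by edgeR), and its unadjusted p ranked 13 of 15306 genes. DESeq2 and voom on all samples called 0 enzymes, and DESeq2 on these 6 samples alone called 1, Mat2a. TN HIF2α AKO mouse 2, which held skeletal muscle transcripts, had the highest value, and the log2 fold change was 0.43 without it. Without the 3 libraries with muscle or epithelial transcripts, the log2 fold change was 0.44. The other 9 enzymes had log2 fold changes between -0.20 and 0.15.

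Whether the cold response differed between the labelled genotypes was tested with the interaction of genotype and temperature. Of the 10 enzymes, 0 passed, as did 0% of all genes, and 1 had an unadjusted p under 0.05 by edgeR, against 2.14% of all genes. It was again Mat2a, with a difference of log2 fold changes of -0.64 (SE 0.18, 95% confidence interval -1.04 to -0.24, adjusted p = 1.00 by edgeR). Thus Mat2a in TN WT mice was the group that stood apart, with all 9 other mice above it. For Psat1 the difference of cold responses was -0.37 (95% confidence interval -0.94 to 0.20), for Shmt1 0.33 (-0.31 to 0.97), and for Psph and Mthfd1 -0.03 and 0.01. Under the 20 alternative settings, the difference lay between -0.76 and -0.52 for Mat2a and between 0.03 and 0.57 for Shmt1. These settings include the fit without the 3 libraries with muscle or epithelial transcripts. A difference between genotypes in the cold response was therefore not shown for any of these enzymes.

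Other genes of the pathway were examined by list. Of 13 tested genes of serine and glycine handling, 5 rose, where 15.6% of all genes rose, and 0 fell, where 5.68% of all genes fell, in cold WT mice by edgeR. The median log2 fold change of the list was 0.58, against -0.03 over all genes. Sdsl, a serine dehydratase-like gene, rose by 2.07 on the log2 scale (SE 0.37). Dld, the dehydrogenase subunit shared by the glycine cleavage system and the pyruvate dehydrogenase complex, rose by 1.68 (SE 0.28). Sfxn1, the carrier that brings serine into mitochondria, rose by 1.22 (SE 0.25), and Gcsh, the carrier protein of glycine cleavage, rose by 0.89 (SE 0.28). With the label HIF2α AKO, 4 of the 13 rose and 0 fell, where 15.6% of all genes rose and 11.5% fell, with Dld at 1.89, Sdsl at 1.79 and Sfxn1 at 0.97 on the log2 scale. Thus the mitochondrial serine carrier rose while the mitochondrial enzyme Shmt2 did not pass the test in the same libraries.

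Of 13 tested genes of the folate cycle, 2 rose, near the 15.6% of all genes, and 0 fell, against 5.68%, in cold WT mice by edgeR. Aldh1l1, the cytosolic counterpart of Aldh1l2, rose by 1.70 on the log2 scale (SE 0.39), and Slc25a32, the mitochondrial folate carrier, rose by 0.56 (SE 0.15). In the labelled HIF2α AKO mice, 1 gene of the 13 rose and 1 fell, against 15.6% and 11.5% of all genes, where Slc25a32 rose by 0.60, and Folr2, a folate receptor expressed by tissue macrophages, fell by 0.89 on the log2 scale. Summed macrophage markers of the same mice lay between 2735 and 3151 CPM at TN and between 1554 and 2000 CPM in cold. By edgeR, 2 of 9, Mrc1 and Ptprc, fell, against 11.5% of all genes. The part of macrophages in the fall of Folr2 was not tested. Of 11 tested genes of the methionine cycle and transsulfuration, 4 rose and 0 fell in cold WT mice, against 15.6% and 5.68% of all genes. They were Cth, which makes cysteine from cystathionine, with a log2 fold change of 1.56 (SE 0.40), Ahcyl1 with 1.30 (SE 0.14), the cobalamin enzyme Mmachc with 1.20 (SE 0.27), and the nicotinamide methyltransferase Nnmt with 0.98 (SE 0.30). AHCYL1 resembles S-adenosylhomocysteine hydrolase in sequence but is known as a regulator of calcium channels rather than as an enzyme of the cycle. Of the 11, 3 rose in the labelled HIF2α AKO mice, against 15.6% of all genes, namely Ahcyl1 by 1.41, Mmachc by 1.23 and the glycine methyltransferase Gnmt by 0.82 on the log2 scale.

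Purine synthesis consumes glycine and folate-bound carbon. Of 13 tested genes, 2 rose and 1 fell in cold WT mice by edgeR, near the shares of all genes, 15.6% and 5.68%. Gmps, which makes GMP, rose by 0.93 on the log2 scale (SE 0.16), Paics rose by 0.45 (SE 0.10) and Prps2 fell by 0.53 (SE 0.17). In the labelled HIF2α AKO mice, 2 rose and 2 fell, against 15.6% and 11.5% of all genes, with log2 fold changes of 1.24 for Gmps, 0.50 for Paics and -0.56 for Prps2. Of 20 tested genes of the ATF4 and amino acid response, 9 rose and 0 fell in cold WT mice, against 15.6% and 5.68% of all genes, and the median log2 fold change was 0.44, against -0.03 over all genes. The hormone gene Fgf21 rose by 4.02 (SE 0.64), the asparagine synthetase Asns by 1.95 (SE 0.32), the transcription factor Cebpb by 1.81 (SE 0.30) and the lipoprotein receptor Vldlr by 1.61 (SE 0.25). With the label HIF2α AKO, 8 rose and 1 fell, against 15.6% and 11.5% of all genes, with Fgf21 at 3.14, Cebpb at 2.13 and Vldlr at 1.85. Fgf21, Cebpb and Vldlr are also known to respond to other regulators in adipocytes, and Atf4 binding was not measured here. Between the labelled genotypes at either temperature, 0 genes of these 5 lists passed the test by edgeR, against 0.00653% of all genes. In the interaction 0 passed, against 0% of all genes. Of the 13, 13, 11, 13 and 20 tested genes together, 1 in cold, 3 at TN and 4 in the interaction had an unadjusted p under 0.05. The shares of all genes at this limit were 2.95%, 2.91% and 2.14%.

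The genes whose pattern over the 12 mice lay closest to that of an enzyme were found by the root mean square (RMS) difference of centred log2 CPM. Shmt1 was closest to Gmps, with an RMS difference of 0.143, followed by the mitochondrial RNA-binding protein Lrpprc at 0.175 and the mitochondrial transport GTPase Rhot2 at 0.186. Psph was closest to genes of mitochondrial proteins as well, with 0.0631 for the methionine sulfoxide reductase Msrb2 and 0.0890 for the outer membrane channel Vdac1. For Psat1 they were Qsox1 at 0.0955, Prdx1 at 0.0975 and Gabarapl1 at 0.102. Mthfd1 was closest to the coat protein gene Sec13 at 0.0313, followed by the proteasome subunit Psmc3 at 0.0496 and Nt5c2 at 0.0499. For Mat2a, the nearest were Zfp623 at 0.143, Mras at 0.145 and Ctns at 0.146, against an SD of 0.23 of Mat2a itself.

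Markers of cell types moved with temperature in the same libraries. Summed adipocyte markers lay between 11971 and 23738 CPM in TN WT and between 24606 and 48029 CPM in cold WT mice. By edgeR, 5 of 10 of them rose, against 15.6% of all genes. Cold WT mouse 3 had the highest sum and the highest Psat1 and Psph, and TN WT mouse 2 was lowest in the marker sum, Psat1 and Psph among the WT mice. In the labelled HIF2α AKO mice, the sum lay between 17755 and 29563 CPM at TN and between 31069 and 35749 CPM in cold, and 2 of 10 rose, against 15.6% of all genes. Summed beige and brown adipocyte markers lay between 36.4 and 137 CPM in all TN mice, between 3914 and 5270 CPM in cold WT and between 6390 and 9814 CPM in cold HIF2α AKO mice. In both genotypes 8 of 8 rose, against 15.6% of all genes.

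Summed lymphocyte markers lay between 1168 and 1771 CPM in TN WT and between 634 and 1110 CPM in cold WT mice. By edgeR, 1 of 9 fell, against 5.68% of all genes. In the labelled HIF2α AKO mice the lymphocyte sums lay between 1082 and 1797 CPM at TN and between 634 and 965 CPM in cold, and 2 of 9 fell, against 11.5% of all genes. The sum for 12 proliferation markers lay between 248 and 630 CPM in TN WT and between 210 and 324 CPM in cold WT mice, and between 287 and 483 CPM and between 195 and 243 CPM in the labelled HIF2α AKO mice. By edgeR, 0 of 12 passed the test in both, where 5.68% and 11.5% of all genes fell. At an unadjusted p under 0.05 were 5 and 7 of 12, and the share of all genes at this limit is not given here for cold against TN. TN WT mouse 2 and TN HIF2α AKO mouse 1 had the highest sums of both lists and the highest Mthfd1l and Shmt2 in their groups. Summed macrophage markers lay between 1966 and 3347 CPM in TN WT and between 1454 and 2702 CPM in cold WT mice. By edgeR, 0 of 9 passed the test, where 15.6% of all genes rose and 5.68% fell, with 1 at an unadjusted p under 0.05. Summed endothelial markers lay between 860 and 1074 CPM in TN WT and between 1028 and 1124 CPM in cold WT mice, and between 878 and 990 CPM and between 1047 and 1163 CPM, without overlap, in the labelled HIF2α AKO mice, where 1 of 7 rose, near the 15.6% of all genes. All measured markers of these lists passed the filter on low counts. Their part in the results for the enzymes was not tested.

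**Figure D5:**
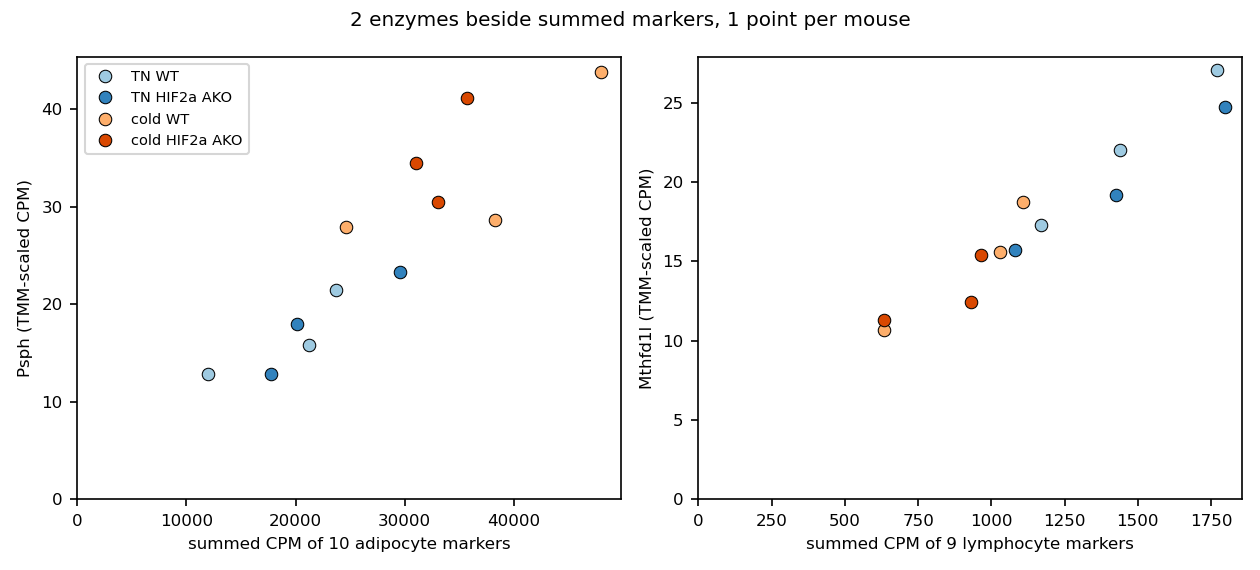
Psph against the summed CPM of 10 adipocyte markers, and Mthfd1l against the summed CPM of 9 lymphocyte markers, with 1 point per mouse, in TMM-scaled CPM and coloured by group. Psph was highest, at 43.8 CPM, in cold WT mouse 3 with an adipocyte marker sum of 48029 CPM, and Mthfd1l was highest, at 27.1 CPM, in TN WT mouse 2 with a lymphocyte marker sum of 1771 CPM.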

How the data were processed

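Per the labels, mRNA libraries were made from RNA of whole inguinal fat. The authors trimmed reads with Trim Galore 0.4.4, aligned them with STAR 2.6.1d to GRCm38/mm10 and counted them per gene with HTSeq 0.13.5, and the submitters' processing notes also name DESeq2 1.30.0. The annotation and strand setting are not given in the sources used here. The deposited values are raw counts without normalization, and the series table matched the per-sample tables in 12 of 12 libraries. The 5 HTSeq tallies (21.9 to 27.0% of reads listed) were left out of library sizes and tests.

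The main test was the quasi-likelihood test of edgeR 4.0.16 in R 4.3.3, on counts scaled by TMM, in a single fit of the 4 groups over all 12 samples. Low genes were removed with filterByExpr (count minimum 10, total minimum 15). Benjamini-Hochberg adjustment covered every gene tested, and an adjusted p under 0.05 counted as a call. DESeq2 1.42.0 and voom of limma 3.58.1 served as alternatives. The biological coefficient of variation was 0.202. Log2 CPM values used a prior count of 2, and fold changes were those of the edgeR fit. Levels per kb used exon lengths of GENCODE M21. Ratios were compared with two-sided exact permutation tests.

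The enzymes and lists were chosen with earlier results of these data known. All 10 enzymes are named in every comparison. From each pathway list, up to 4 genes with the largest called change in cold WT mice and up to 3 per list in other comparisons are named, and for each enzyme called in cold WT mice the 3 genes of most similar pattern, of which 1 is not reported here. Other genes were named after their values were seen. On simulated data for cold WT against TN WT with 15306 genes, edgeR made 121 calls, of which 5 were false. It found 8 of 68 genes with a log2 change of 0.5, 48 of 69 with 1 and 60 of 63 with 2. Only these genes were changed, in both directions, whereas 2389 genes were called higher and 870 lower in the data. The shares found therefore need not hold for the data. DESeq2 made 36 false calls among 180. Alternatives were other scalings, filters, tools, samples in the fit, a replicate block and each library left out in turn.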

Additional observations from a re-analysis of the deposited data

How the results depend on the processing

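The number of enzymes called in cold WT against TN WT, 5 in the report, was 2 with edgeR on these 6 samples alone and 3 without the 3 libraries with muscle or epithelial transcripts, an alternative chosen after seeing the data. It lay between 1 and 5 when each library was left out in turn. It was 1, Shmt1, without TN WT replicate 1 or replicate 2, 2, Mat2a and Shmt1, without cold WT replicate 3, and 3, Psat1, Psph and Shmt1, without cold WT replicate 1 or replicate 2. In cold against TN with the label HIF2α AKO, 3 in the report, it was 5 with voom and with DESeq2 on these 6 samples, where Mthfd1l and Psat1 were added, and between 1 and 4 with a library left out. It was 1, Shmt1, without cold HIF2α AKO replicate 1 or TN HIF2α AKO replicate 1. With library size alone the calls were 4 in each genotype and included Mthfd1l as lower in both, and Mat2a as lower with the label HIF2α AKO. Between genotypes in cold, 0 became 1, Psat1, with the wider limits of the study's methods applied to the edgeR values. At TN, 0 became 1 with DESeq2 on these 6 samples, for Mat2a with an adjusted p of 0.00412, where its adjusted p under all alternatives ranged from 0.00412 to 1. Leaving out a library gave 0 to 0 calls in both and in the interaction, which had 0 calls under all alternatives run.

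The labels do not say what same-numbered replicates of different groups share. Of 18 such pairs, 5 had correlated deviations above 0.1 (range -0.43 to 0.39). Deviations were taken from means of groups of 3, so these correlations cannot show whether the replicates were paired. A replicate block gave 4 calls in cold WT against TN WT, 2 in cold against TN with the label HIF2α AKO, and 0 in the other comparisons.

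Signs turned only for values that passed no test. Phgdh in cold WT, -0.14 in the report, was 0.18 with voom and 0.15 without the 3 libraries, and between -0.34 and 0.15 with a library left out (0.053 without cold WT replicate 3, 0.15 without TN WT replicate 3). Shmt2 in cold WT was 0.035 with voom. Mthfd2 in cold WT was -0.24 with library size alone, -0.0096 without a filter and between -0.33 and 0.29 with a library left out (-0.047 without TN WT replicate 1). Mat2a between genotypes in cold lay between -0.24 and 0.0013 with a library left out. At TN between genotypes, Psat1 lay between -0.11 and 0.27 (-0.0022 without TN HIF2α AKO replicate 2), and Shmt1 between -0.16 and 0.053 with a library left out (0.034 without TN WT replicate 2), 0.038 with voom and 0.039 without the 3 libraries. The cause of these changes was not tested. Aldh1l2 was counted least, with 36 to 103 counts per library.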

Other observations

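For enzymes that passed no test in cold WT mice, the genes of most similar pattern were looked up after the values were seen. Over the 12 mice, Mthfd1l was closest to Mcm2, a replication helicase subunit, with an RMS difference of centred log2 CPM of 0.0638. It was followed by the lymphoid transcription factor gene Ikzf1 at 0.0694 and Cyba, a subunit of the phagocyte NADPH oxidase, at 0.0748, against an SD of 0.41 of Mthfd1l itself. Shmt2 was closest to Pcna, the sliding clamp of replication, at 0.0706, followed by Cep85 at 0.0715 and Ptma at 0.0775, with an SD of 0.20 of its own. For Phgdh the nearest were Trip6 at 0.137, Smarcd3 at 0.157 and Ctnnal1 at 0.161. For Mthfd2 they were Ddx39 at 0.139, Proser2 at 0.147 and Rpl38 at 0.189, and for Aldh1l2 they were Doc2a at 0.107, Cyp39a1 at 0.129 and Cdc14a at 0.141. In cold WT against TN WT, the log2 fold changes of Mcm2, Ikzf1, Cyba and Pcna were -0.54, -0.54, -0.47 and -0.24, and none had an adjusted p under 0.05 by edgeR. The likeness is a description over mice that share groups, and a shared source was not tested.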
